A study of Mus musculus with 4 samples.

Results

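Telencephalon-only CTCF peaks at gene ends are the peaks on chromosomes 1 to 19 of the telencephalon list that overlap no peak of the list from the medial ganglionic eminence (MGE) by even 1 bp, and whose midpoint lies within 1 kb of either end of an annotated mouse gene. They numbered 2657, of 31141 telencephalon peaks on these chromosomes and of 57689 peaks in both lists. They were chosen by their calls in these lists and by position, so their absence from the MGE list and their closeness to genes are the choice itself and no result. Of all telencephalon peaks on these chromosomes 16390 (52.6%) had no MGE partner, and of the 5420 at gene ends 2657 (49.0%) had none, so gene-end peaks lacked a partner about as often as telencephalon peaks in general. A shared peak is a telencephalon peak that overlaps an MGE peak, and an MGE-only peak is the reverse of a telencephalon-only peak.

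The lists come from ChIP-seq, in which an antibody pulls down the DNA bound by a protein, on mouse embryos at embryonic day 13.5. There was 1 CTCF library from telencephalon, the front division of the embryonic forebrain, and 1 from MGE. The MGE is a ventral part of the telencephalon that produces many cortical interneurons. Each CTCF library had an input library not analysed here. The labels give no genotype, strain or drug treatment, and their dissection text speaks of MGE for every sample, so how far the telencephalon sample held MGE tissue is not known. Each tissue had its own New England Biolabs library kit (the ChIP-Seq kit for telencephalon, NEBNext Ultra II for MGE), so tissue and kit cannot be told apart. Without replicates no difference was tested: every comparison describes these libraries, and each interval is an exact 95% Clopper-Pearson interval that covers counting error and treats peaks or genes as independent. The lists hold positions without read counts, so depth is unknown, and a site missing from a list may lie below its calling limit.

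CTCF is a zinc finger protein that reads a long DNA motif and, together with cohesin, holds many loop anchors and domain borders. It also binds near many promoters, where it is found beside general promoter factors. ZFP143 and YY1, zinc finger proteins that bind their own promoter motifs, have both been described at chromatin loops with CTCF.

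The sequences are examples from the widest members at promoters and are not typical. Of 859 promoters that members overlapped, 61 lay wholly inside the peak, and the median member was 233 bp wide. The 4 below are the RefSeq promoters (GRCm38.p6, the coordinates of mm10) that lay wholly inside the widest member peaks and held a match to the CTCF core. Each run is the 250 bases before the gene start, 5′ to 3′ on the strand of the gene, and capitals mark the match on either strand.

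Nifk, encoding a nucleolar partner of Ki-67, plus strand, chr1:118321593-118321842, under a peak of 652 bp:
Nifk: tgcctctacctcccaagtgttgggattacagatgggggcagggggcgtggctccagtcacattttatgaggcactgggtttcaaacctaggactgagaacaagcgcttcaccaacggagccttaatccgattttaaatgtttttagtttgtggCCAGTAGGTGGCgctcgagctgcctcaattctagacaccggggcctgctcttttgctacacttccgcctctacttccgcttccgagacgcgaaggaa
E130018N17Rik, a long noncoding RNA gene, minus strand, chr2:168154514-168154763, under a peak of 651 bp:
E130018N17Rik: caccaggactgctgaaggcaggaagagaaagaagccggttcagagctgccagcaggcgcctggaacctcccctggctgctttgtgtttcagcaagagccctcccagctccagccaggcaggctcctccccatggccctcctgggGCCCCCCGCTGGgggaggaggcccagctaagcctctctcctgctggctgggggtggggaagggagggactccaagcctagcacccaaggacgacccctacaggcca
Wipf2, encoding a WASP-interacting actin regulator, plus strand, chr11:98863348-98863597, under a peak of 599 bp:
Wipf2: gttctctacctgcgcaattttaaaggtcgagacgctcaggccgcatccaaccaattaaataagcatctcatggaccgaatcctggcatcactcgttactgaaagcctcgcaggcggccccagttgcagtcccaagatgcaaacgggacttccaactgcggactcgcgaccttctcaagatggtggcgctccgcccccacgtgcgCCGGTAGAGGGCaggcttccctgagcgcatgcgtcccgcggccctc
Nmur1, encoding a neuromedin U receptor, minus strand, chr1:86389362-86389611, under a peak of 579 bp:
Nmur1: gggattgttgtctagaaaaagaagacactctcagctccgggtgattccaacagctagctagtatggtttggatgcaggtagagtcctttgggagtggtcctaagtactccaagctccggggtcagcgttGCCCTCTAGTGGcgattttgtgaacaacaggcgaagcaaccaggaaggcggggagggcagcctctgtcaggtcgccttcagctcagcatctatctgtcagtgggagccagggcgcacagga

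The next 4 are promoters wholly inside the widest member peaks whose window held no CTCF core match. Here capitals mark matches to the other promoter motifs searched. Snapc5 held CCAAT and TGACGTCA, Mcm3ap held CCGGAAG at 2 places, Gm33324 held overlapping copies of CCAAT on opposite strands, and the Fbxo6 run held none of them.

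Snapc5, encoding a subunit of the complex that activates small nuclear RNA genes, plus strand, chr9:64179047-64179296, under a peak of 1004 bp:
Snapc5: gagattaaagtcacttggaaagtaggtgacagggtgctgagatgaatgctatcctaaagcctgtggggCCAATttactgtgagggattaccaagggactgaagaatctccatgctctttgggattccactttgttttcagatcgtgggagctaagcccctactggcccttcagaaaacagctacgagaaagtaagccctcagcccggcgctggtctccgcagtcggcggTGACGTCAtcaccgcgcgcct
Gm33324, a long noncoding RNA gene, minus strand, chr15:83757019-83757268, under a peak of 821 bp:
Gm33324: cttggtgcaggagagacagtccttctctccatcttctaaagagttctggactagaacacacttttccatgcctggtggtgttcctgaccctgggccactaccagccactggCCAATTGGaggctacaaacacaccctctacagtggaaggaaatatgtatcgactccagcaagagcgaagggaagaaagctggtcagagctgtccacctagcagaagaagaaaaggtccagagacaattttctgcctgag
Mcm3ap, encoding an mRNA export factor, plus strand, chr10:76468652-76468901, under a peak of 638 bp:
Mcm3ap: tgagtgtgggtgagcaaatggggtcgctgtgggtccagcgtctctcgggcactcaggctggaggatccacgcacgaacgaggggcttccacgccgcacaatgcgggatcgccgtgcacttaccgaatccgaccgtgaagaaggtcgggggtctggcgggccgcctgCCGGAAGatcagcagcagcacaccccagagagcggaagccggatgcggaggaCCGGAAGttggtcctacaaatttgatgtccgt
Fbxo6, encoding an F-box ubiquitin ligase subunit, minus strand, chr4:148152030-148152279, under a peak of 626 bp:
Fbxo6: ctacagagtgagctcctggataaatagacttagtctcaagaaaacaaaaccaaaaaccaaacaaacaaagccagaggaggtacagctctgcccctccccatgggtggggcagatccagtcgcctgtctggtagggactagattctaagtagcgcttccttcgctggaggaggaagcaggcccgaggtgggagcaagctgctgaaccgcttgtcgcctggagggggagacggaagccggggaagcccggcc

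Promoters under members held a CTCF core match less often than promoters under shared peaks, and more often than promoters under no telencephalon peak. The core is the 12-position CTCF consensus, searched on both strands with at most 1 mismatch in the 300-base window from 250 bases before to 50 after a gene start. Of the 2657 members, 722 overlapped such a window. Of 859 promoter entries that a member overlapped, 125 held a match (14.6%, interval 12.3 to 17.1%). Of 1139 under shared telencephalon peaks 424 did (37.2%, 34.4 to 40.1%), of 105 under MGE-only peaks 13 did (12.4%, 6.76 to 20.2%), and of 29319 under no telencephalon peak 816 did (2.78%, 2.60 to 2.98%). Over all 31396 entries the share was 4.41%. The intervals of members and shared peaks were far apart, and those of members and MGE-only peaks overlapped. With no mismatch the shares were 2.21% under members and 11.6% under shared peaks, and with at most 2 mismatches they were 51.6% and 72.3%.

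Members also fell below shared peaks within width classes. In peaks under 200 bp wide the matched shares were 15.4% under members (38 of 247 promoters) and 24.0% under shared peaks (12 of 50), with overlapping intervals. From 200 to under 250 bp they were 15.1% and 25.4%, also with overlapping intervals. From 250 to under 350 bp they were 10.2% (interval 6.65 to 14.8%) under members and 33.2% (28.0 to 38.8%) under shared peaks, and at 350 bp and above 18.8% (13.1 to 25.6%) and 40.9% (37.3 to 44.6%). Among promoters rich in CpG, with an observed over expected ratio above 0.6, the shares were 11.2% under members, 34.2% under shared peaks and 2.83% under no telencephalon peak.

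The windows under members reached less far into the peak, with a median of 169 bases inside it against 251 under shared peaks. Counted per base inside the peak, 7.79 promoters per 10 kb held a CTCF core match under members and 16.6 per 10 kb under shared peaks. Where a match was present it lay near the middle of the peak. Of the 125 matched promoters under members, 112 (89.6%) had a match wholly inside the peak and 88 (70.4%, interval 61.6 to 78.2%) within 50 bp of its midpoint. Of the 424 under shared peaks, 419 (98.8%) had it inside the peak and 242 (57.1%, 52.2 to 61.8%) within 50 bp of the midpoint. These shares are not matched for width. Members were narrower than shared gene-end peaks (median 233 against 368 bp), so 50 bp takes up more of a member. Bases of a peak outside the promoter window were not read, so a promoter without a match may still lie beside one.

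ACTACAA, a part of the longer ZFP143 motif, ran the other way. The rest of that motif was not searched, so a match is not a full ZFP143 site. It was present in 65 of 859 promoters under members (7.57%, interval 5.89 to 9.54%), in 34 of 1139 under shared peaks (2.99%, 2.08 to 4.15%), in 1 of 105 under MGE-only peaks and in 940 of 29319 under no telencephalon peak (3.21%, 3.01 to 3.41%), and over all entries the share was 3.32%. By width, the share under members was 7.69%, 7.55% and 10.2% in the classes below 350 bp. Under shared peaks ACTACAA was in 1 of 50, 0 of 63 and 13 of 310 promoters of these classes. At 350 bp and above the share was 3.64% under members and 2.79% under shared peaks. In every width class the intervals of members and shared peaks overlapped. Among CpG-rich promoters the share was 8.33% under members and 3.46% under shared peaks. Of the 65 promoters, 9 (13.8%, interval 6.53 to 24.7%) also held the CTCF core, a share like that of all promoters under members. The matches were less central than those of CTCF, since 42 of the 65 lay inside the peak and 23 within 50 bp of its midpoint. Where the whole promoter window lay inside the peak, 1 of 61 promoters under members (1.64%) and 5 of 342 under shared peaks (1.46%) held ACTACAA. The interval for these members, 0.0415 to 8.80%, spans both shares over all promoters under members and shared peaks.

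The widest member peaks with ACTACAA inside the peak and before the gene start are given as 51-base stretches, with the match in capitals on either strand. They were chosen after the share was seen.

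Fanca, a Fanconi anaemia DNA repair gene, minus strand, chr8:123318669-123318719, 114 bases before the start:
Fanca: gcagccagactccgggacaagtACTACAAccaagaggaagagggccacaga
Afg1l, encoding a mitochondrial ATPase, minus strand, chr10:42478707-42478757, 163 bases before the start:
Afg1l: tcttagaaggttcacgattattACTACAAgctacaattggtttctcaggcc
Igsf9, encoding an immunoglobulin superfamily adhesion protein, plus strand, chr1:172482049-172482099, 135 bases before the start:
Igsf9: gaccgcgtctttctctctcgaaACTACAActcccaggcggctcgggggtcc
Wbp2, encoding a WW domain binding protein, minus strand, chr11:116087114-116087164, 140 bases before the start:
Wbp2: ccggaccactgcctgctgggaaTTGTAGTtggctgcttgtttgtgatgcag

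Among the other motifs, CCAAT, the NF-Y box, was in 40.9% of promoters under members (interval 37.6 to 44.2%), 30.6% under shared peaks (27.9 to 33.3%) and 37.5% under no telencephalon peak. GGGCGG, the GC box bound by SP1, was in 64.4% under members, 56.8% under shared peaks and 34.3% under no telencephalon peak. CCGGAAG, the site of ETS factors, was in 172 of 859 promoters under members, in 17.7% under shared peaks and in 8.33% under no telencephalon peak. AAGATGGC, the YY1 site, was in 5.59% under members (4.15 to 7.34%) and 3.16% under shared peaks (2.22 to 4.35%), and these intervals overlapped slightly. GCGCATGCG, the NRF1 site, and TGACGTCA, the cyclic AMP response element, were in 3.96% and 3.61% under members and in 2.99% and 1.84% under shared peaks. TATAAA was in 6.64% under members, 7.46% under shared peaks and 14.1% under no telencephalon peak. Among CpG-rich promoters the gaps to promoters under no telencephalon peak were small: GGGCGG was in 73.9% under members, 67.4% under shared peaks and 72.7% under no telencephalon peak, TATAAA in 6.41%, 6.43% and 5.89%, and CCGGAAG in 23.4%, 22.6% and 18.2%. CCAAT was in 41.8%, 29.5% and 35.7% of these CpG-rich sets. Matches of different motifs shared bases in 37 of 859 promoters under members and 38 of 1139 under shared peaks. Of promoters with the CTCF core, 26 of 125 under members and 31 of 424 under shared peaks had a core match that shared bases with another motif. A match describes the letters and shows no binding.

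In base composition members and shared peaks were alike. Median GC content was 61.0% under members (quartiles 55.3 and 66.3%) and 61.7% under shared peaks, against 52.3% under no telencephalon peak. The median CpG ratio was 0.77 under members, 0.75 under shared peaks and 0.36 under no telencephalon peak. A ratio above 0.6 was found in 72.6% of promoters under members (interval 69.5 to 75.6%) and 71.0% under shared peaks (68.3 to 73.6%), with overlapping intervals, against 33.9% under no telencephalon peak.

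**Figure D1:**
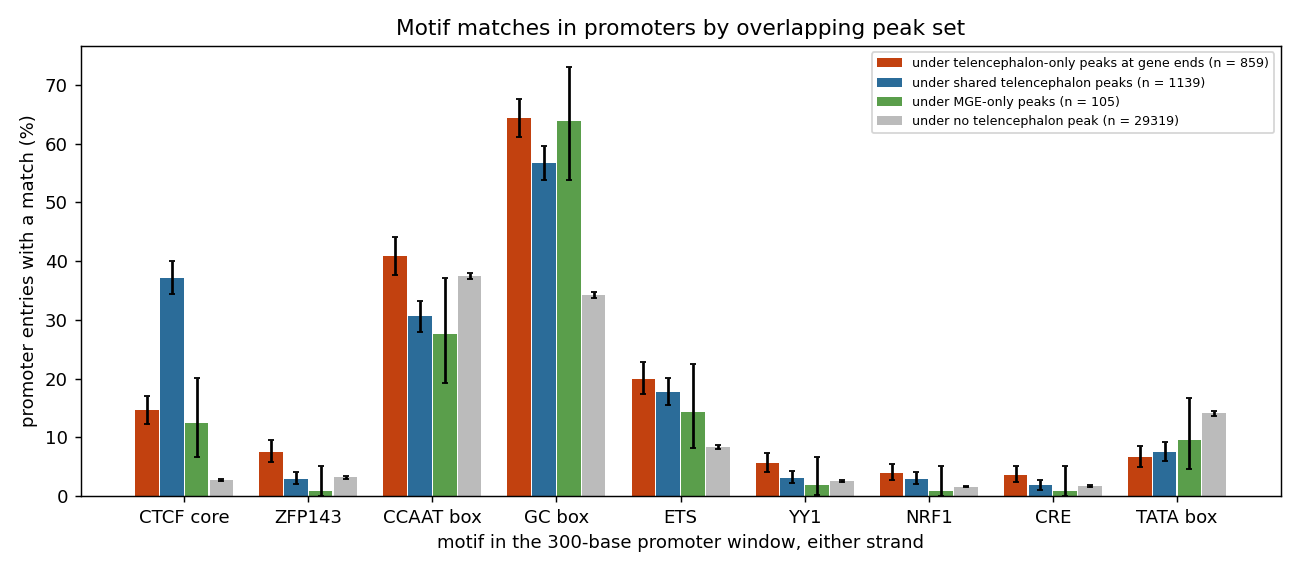
Share of promoter entries (%) with each motif, searched on both strands, for promoters under telencephalon-only peaks at gene ends, shared telencephalon peaks, MGE-only peaks and no telencephalon peak; error bars are exact 95% intervals of counting error. The CTCF core stands at 14.6% under telencephalon-only peaks and 37.2% under shared peaks. The bars labelled ZFP143 count ACTACAA, a part of that motif, and stand at 7.57% and 2.99%.

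Members were narrow. Their widths had a median of 233 bp and quartiles of 181 and 301 bp, from 150 bp, the narrowest width of the list (216 members), to 1004 bp. Shared telencephalon peaks at gene ends had a median of 368 bp, telencephalon-only peaks away from gene ends 221 bp, and MGE-only peaks at gene ends 244 bp, which is the narrowest width of the MGE list. Of the members 33.9% (901) were under 200 bp wide and 15.1% (400) were 350 bp or wider, whereas 5.21% and 55.7% of shared gene-end peaks fell in these classes. In width the members thus resembled the other telencephalon-only peaks more than the shared ones, and they covered 0.688 Mb in all.

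**Figure D2:**
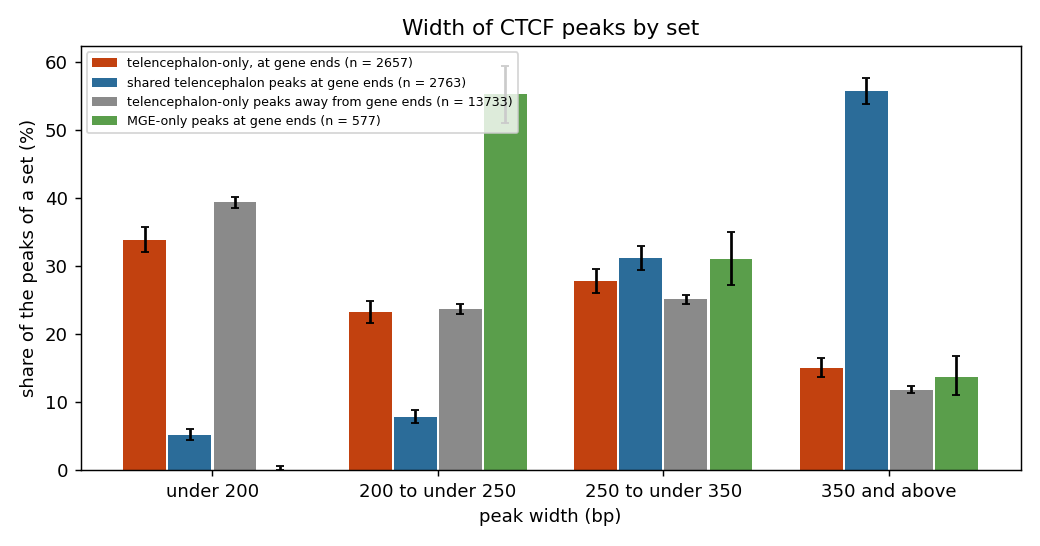
Share of the peaks of each set (%) in 4 classes of peak width in bp; bars are shares and error bars exact 95% intervals. Telencephalon-only peaks at gene ends fall mostly below 350 bp, and 55.7% of shared gene-end peaks are wider.

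The gene-end share of telencephalon-only peaks rose a little with width. It was 14.3% below 200 bp (interval 13.4 to 15.2%), 15.9% from 200 to under 250 bp, 17.6% from 250 to under 350 bp and 19.8% at 350 bp and above (18.1 to 21.6%). Shared telencephalon peaks gave 19.1%, 14.6%, 16.6% and 21.0% in these classes, so from 200 bp up the intervals of telencephalon-only and shared peaks overlapped. MGE-only peaks gave 5.40%, 5.69% and 7.23% in the classes from 200 bp up, and the intervals lay below those of every telencephalon class. The class from 200 to under 250 bp is not matched in width, since the narrowest MGE peak has 244 bp. Library kits and possibly calling thresholds differ between the lists, and their part in this was not tested.

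**Figure D3:**
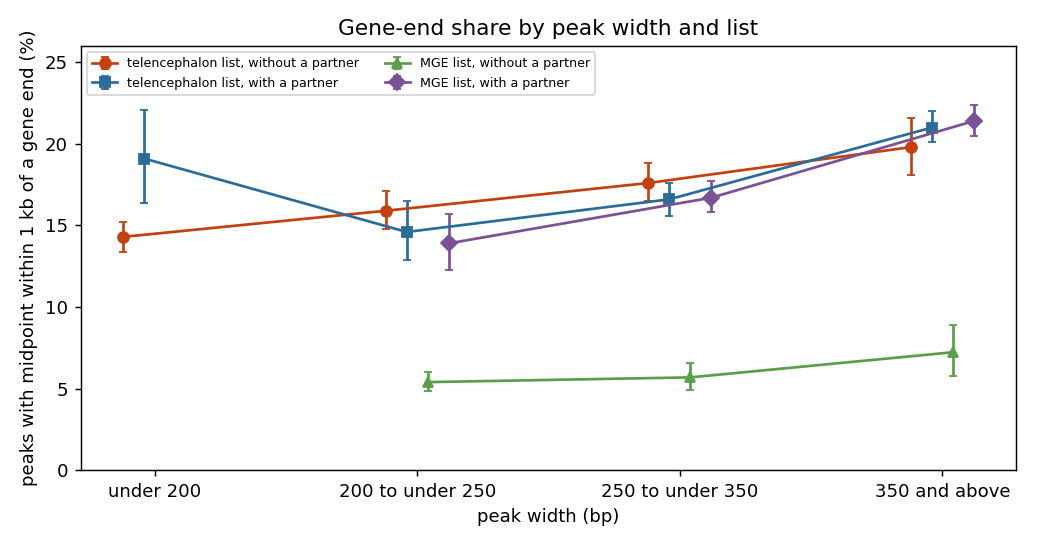
Share of peaks (%) with a midpoint within 1 kb of a gene end, by peak width in bp, for peaks of the telencephalon and MGE lists without and with a partner in the other list; error bars are exact 95% intervals. MGE-only peaks lie between 5.40% and 7.23%, and telencephalon-only peaks between 14.3% and 19.8%.

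Members lay mainly at gene starts. The strand of genes was taken from the RefSeq promoter table, which matched 16457 of 20665 protein-coding and 9291 of 12408 lncRNA genes. Chromosome 18, with 64 members, was not analysed here for strands, starts and promoter motifs. In all, 1930 members lay within 1 kb of an end of a gene with known strand. At 1397 of them (72.4%, interval 70.3 to 74.4%) that end was a start, and 533 lay at the other end of a gene without a start in the window. Shared gene-end peaks were at a start in 69.6% of 1998 cases (67.6 to 71.6%), an interval that overlaps the one of the members. MGE-only gene-end peaks were at a start in 54.5% of 347 cases (49.1 to 59.8%). The start share of members varied little with width, from 70.8% below 200 bp to 75.0% between 250 and 350 bp. Among MGE-only peaks it was 44.7% below 250 bp and 68.0% at 350 bp and above.

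Around the start the peaks clustered just upstream. Of 1321 members with a midpoint within 1 kb of a listed start, 680 (51.5%) were within 250 bp of it and 779 (59.0%) upstream, with a median position of -57 bp. Of 1317 shared peaks 727 (55.2%) were within 250 bp and 875 (66.4%) upstream, with a median of -93 bp. Starts of opposite strand within 1 kb of the same midpoint, as at a bidirectional promoter, were found at 195 members (14% of those at a start, interval 12.2 to 15.9%) and at 160 shared peaks (11.5%, 9.87 to 13.3%). These intervals overlapped.

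**Figure D4:**
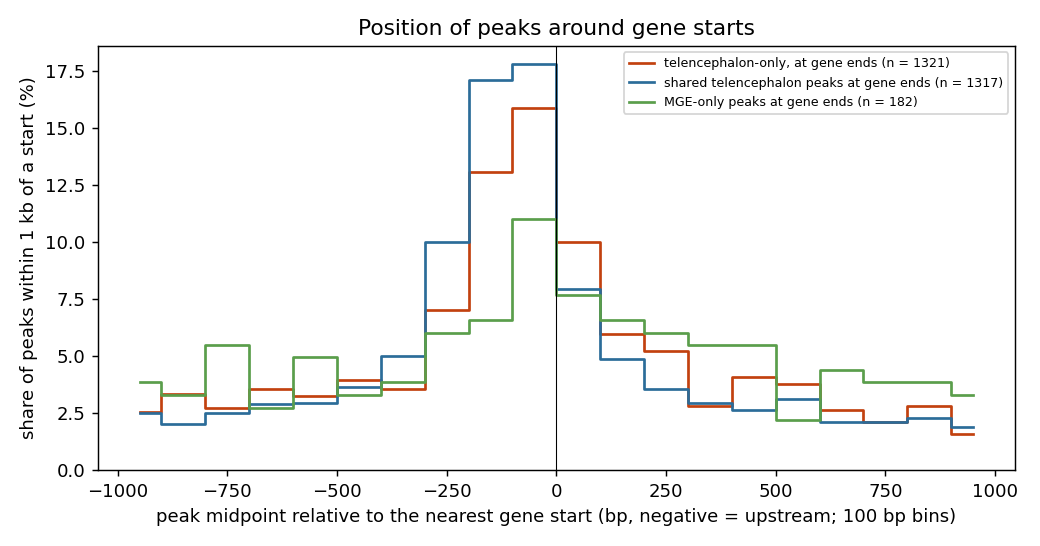
Share of peaks (%) by position of the midpoint relative to the nearest gene start, in bins of 100 bp, negative values upstream, for telencephalon-only, shared and MGE-only peaks at gene ends within 1 kb of a start. The bin just upstream of the start holds 15.9% of telencephalon-only peaks, 17.8% of shared peaks and 11.0% of MGE-only peaks.

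The 15 widest members were 661 to 1004 bp wide, and the nearest MGE peak lay 646 to 56369 bp from them (median 21771 bp). The widest (chr9:64178663-64179666, 1004 bp) lay over the start of Snapc5 and 39404 bp from an MGE peak. Its midpoint lay 602 bp from the far end of Rpl4, a large ribosomal subunit gene. At Tsen54, a subunit of the tRNA splicing endonuclease, and at Caskin2 a peak of 715 bp lay 26570 bp from the nearest MGE peak (chr11:115813869-115814583). At Mrps18b, a mitochondrial ribosomal protein gene, and Ppp1r10 a peak of 666 bp lay 21144 bp from it (chr17:35915953-35916618).

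Other wide members lay beside genes of quite different roles. C1qtnf5, a secreted protein of retina and other tissues, had a peak of 783 bp at its far end, and within 1 kb of an end of Mfrp. Antxr1, a collagen and anthrax toxin receptor, had one of 726 bp, and Ppp1r9b, the dendritic spine protein spinophilin, one of 680 bp at its far end. Apoa2, an apolipoprotein of HDL, had one of 668 bp within 1 kb of its start, and Fbxo32, a ubiquitin ligase subunit of muscle atrophy, one of 662 bp. The remaining wide members lay at Lrrc74a (661 bp), at the lncRNA genes Gm33324 (821 bp), Gm31198 (697 bp), Gm41336 (674 bp) and 4930481A15Rik (662 bp), at 4930407I10Rik (670 bp) and at Rn18s-rs5 (770 bp), annotated as a pseudogene. Lrrc74a was the closest to a partner, with an MGE peak 646 bp away. Of these 15 peaks 7 lay at a start, 4 at another end and 4 beside genes with no strand in the table.

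For most members the MGE list had no peak close by. The nearest MGE peak lay a median of 18183 bp away (quartiles 5913 and 43240 bp), against 23436 bp for telencephalon-only peaks away from gene ends. It was within 500 bp at 119 members (4.48%, interval 3.72 to 5.34%), within 5 kb at 591 (22.2%, 20.7 to 23.9%) and within 50000 bp at 2105 (79.2%). Telencephalon-only peaks away from gene ends had an MGE peak within 5 kb in 18.2% of cases (17.6 to 18.9%). MGE peaks were thus somewhat nearer to members than to the other telencephalon-only peaks.

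The 5 members farthest from any MGE peak were 150 to 251 bp wide. Gm36391 had a peak of 162 bp 674877 bp away from the nearest MGE peak, and Gm6201 one of 210 bp at 384077 bp. Mpped2, a metallophosphoesterase gene (chr2:106693321-106693470, 150 bp), Thrb, the thyroid hormone receptor beta gene (chr14:17659112-17659268, 157 bp), and Mindy2, a deubiquitinase gene (chr9:70657364-70657614, 251 bp), had theirs 261973, 252779 and 248246 bp away. At the border of the rule, the members nearest to a partner lay 5 bp from an MGE peak at Dnhd1, 10 bp at Col23a1 and 15 bp at Wdr93, and the shared gene-end peaks with the least overlap had 13 bp at Rab7, 14 bp at Vangl2 and 24 bp at Hbq1b. Midpoints just inside the window lay 1000 bp from an end of Scarb2 and 999 bp from one of Gm30318 and of Gm36797, and just outside it 1001 bp from Gm9712 and 1002 bp from Svil and from Ntrk3.

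Members touched 3036 genes, of which 1988 were protein-coding, 9.62% of the 20665 in the table. A shared telencephalon peak lay at an end of 2042 (9.88%) and an MGE-only peak at an end of 335 (1.62%). Of the 1988 genes, 206 (10.4%) also had a shared peak at an end and 37 (1.86%) also had an MGE-only peak, close to the 9.88% and 1.62% over all protein-coding genes. Most members (2168 of 2657) lay beside a single gene. A peak of 244 bp lay at the end that the Pcdhg genes, clustered protocadherins, have in common, and counted for 25 genes. Another member lay within 2 kb of 191 of them.

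A few genes collected several members. Of the protein-coding genes 1873 had 1 member at their ends, 108 had 2 and 7 had 3. Those with 3 were A630095N17Rik, Cdk20, a kinase of the cilium, Ecd, a splicing and cell cycle factor, Map3k4, a stress kinase, Narf, Phactr3, an actin and phosphatase regulator of brain, and Rtn4rl2, a receptor of the Nogo family, and the lncRNA gene Gm52046 also had 3. At Cdk20 peaks of 375 and 150 bp lay at one end and a peak of 647 bp at the other (chr13:64439028-64439674). At Phactr3 peaks of 337 and 491 bp lay at one end, 69419 and 68348 bp from the nearest MGE peak, and one of 278 bp at the other. At Narf all 3 (212, 234 and 254 bp) lay side by side, 773 to 1697 bp from an MGE peak.

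By type of gene, 68.8% of members (1828) lay beside protein-coding genes and 26.8% (711) beside lncRNA genes, against 69.5% and 28.7% of shared gene-end peaks and 54.8% and 27.2% of MGE-only ones. Pseudogenes were beside 5.31% of members (interval 4.49 to 6.23%), 3.98% of shared peaks (3.28 to 4.78%) and 16.1% of MGE-only peaks (13.2 to 19.4%). Small RNA genes were also touched. Members lay at 62 of 1286 snoRNA genes (4.82%, interval 3.72 to 6.14%), shared peaks at 28 (2.18%, 1.45 to 3.13%) and MGE-only peaks at 6. Both snoRNA intervals lay below the shares of all protein-coding genes, 9.62% with a member and 9.88% with a shared peak. For tRNA genes these counts were 34, 28 and 3 of 391, and for microRNA genes 31, 44 and 15 of 1136. The member share was 8.70% (6.10 to 11.9%) for tRNA genes and 2.73% (1.86 to 3.85%) for microRNA genes. Of 47042 genes of any type, 3036 had a member, so snoRNA and microRNA genes were not favoured by members. Many snoRNA genes lie inside host genes and tRNA genes lie in groups, so these genes are not independent.

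Chromosomes differed modestly. From 7.51% (chromosome 16) to 13.1% (chromosome 18) of the protein-coding genes of a chromosome had a member at an end. Chromosome 18 alone had more such genes (67) than members (64). A peak beside several genes, as at the Pcdhg genes, counts for each of them, so that share overstates the number of peaks. The next highest share was 13.0% on chromosome 12. The share of gene-end telencephalon peaks without an MGE partner was 41.2% on chromosome 15 (interval 34.9 to 47.6%) at the low end and 56.6% on chromosome 12 (49.4 to 63.6%) at the high end.

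Among the gene lists, histone genes had members most often. Members lay at 18 of 68 clustered histone genes (26.5%, interval 16.5 to 38.6%), against 9.62% of all protein-coding genes. Shared peaks lay at 4 of 68 (5.88%, 1.63 to 14.4%), an interval that held the 9.88% of all protein-coding genes with a shared peak. The 18 genes were served by 11 peaks, since many histone genes lie back to back, so the interval is too narrow. All but 1 of these peaks lay in the chromosome 13 clusters, and they were 194 to 343 bp wide. The widest lay at H4c14 on chromosome 3 (chr3:96263287-96263629, 343 bp), and the next at H2bc11 (chr13:22044167-22044483, 317 bp). A peak of 256 bp lay 106 bp from the end of H2ac12 and 593 bp from the start of H2bc12. The nearest MGE peaks lay 235 to 76123 bp away. With telencephalon peaks at least as wide as the narrowest MGE peak, 6 histone genes had a member, and with the wider 50% of each list 3 had one.

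Ribosomal protein genes had members at 18 of 83 genes (21.7%, interval 13.4 to 32.1%) and shared peaks at 19 (22.9%, 14.4 to 33.4%), both above the 9.62% and 9.88% of all protein-coding genes. Besides Rpl4, the widest members lay at Rpl27 (chr11:101441773-101442328, 556 bp), Rps15a (341 bp) and Rpl34 (339 bp). Mitochondrial ribosomal protein genes had members at 9 of 77 (11.7%) and shared peaks at 12 (15.6%), with intervals that held the share of all genes. Mrpl11 (604 bp), Mrpl12 (559 bp) and Mrpl1 (400 bp) followed Mrps18b in width.

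Other housekeeping lists could not be told apart from all genes, since lists of few genes give wide intervals. Proteasome genes had members at 7 of 48 (14.6%), with the widest at Psma1 (425 bp), Psmd7 (340 bp) and Psma3 (329 bp). Aminoacyl-tRNA synthetases had 3 of 18 (16.7%, interval 3.58 to 41.4%), among them Mars2 (447 bp) and Nars2 (223 bp). Spliceosome genes had 6 of 58 (10.3%), among them Srsf5 (400 bp) and Prpf8 (351 bp), the core protein of the spliceosome, whose peak lay 162 bp from an MGE peak. DNA replication genes had 5 of 39 (12.8%), with Pold1, a DNA polymerase subunit (476 bp), and Rfc4, a clamp loader subunit (409 bp). DNA repair genes had 5 of 40 (12.5%), with Fanca (495 bp), Atm, the damage kinase (206 bp), and Xrcc6, the Ku70 gene. The Xrcc6 peak (631 bp) lay within 1 kb of the far end of the gene. Intervals of all of these lists held 9.62%.

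Oxidative phosphorylation genes had members at 4 of 63 (6.35%, interval 1.76 to 15.5%) and shared peaks at 14 (22.2%, 12.7 to 34.5%). These intervals overlapped, and that of the members held the 9.62% of all protein-coding genes. The shared interval lay above the 9.88% of all protein-coding genes with a shared peak. The members lay at Uqcrc2, a complex III subunit (451 bp), Cox5a (298 bp, 101 bp from an MGE peak), Ndufa12 (221 bp) and Ndufa13 (167 bp). Zinc finger genes named Zfp had members at 38 of 360 (10.6%, 7.58 to 14.2%) and shared peaks at 21 (5.83%, 3.65 to 8.78%). The member interval held the 9.62% of all protein-coding genes, and the shared interval lay below their 9.88%. The widest member lay at Zfp423, a factor of brain progenitors (chr8:87960931-87961459, 529 bp, 138130 bp from an MGE peak). Zfp60 (492 bp), Zfp788 (444 bp) and Zfp142 (424 bp) followed. Olfactory receptor genes, which lie in large clusters, had members at 4 of 1100 (0.364%, interval 0.0992 to 0.928%) and shared peaks at 1. Both were below the 9.62% and 9.88% of all protein-coding genes. MGE-only peaks lay at 20 of the 1100, near the share over all protein-coding genes (335 of 20665, 1.62%). The 4 with a member were Olfr90, Olfr658, Olfr750 and Olfr173, with peaks of 322, 264, 163 and 150 bp.

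Members at forebrain genes were counted against the 9.62% of all protein-coding genes. Of 34 MGE and interneuron lineage genes 2 had a member (5.88%, interval 0.720 to 19.7%), and 7 had a shared peak. Those with a member were Olig2, a factor of ventral progenitors, and Etv1 (153 bp, 67710 bp from the nearest MGE peak). The Olig2 peak (247 bp) lay within 1 kb of the start and 85181 bp from the nearest MGE peak. Of 30 dorsal and excitatory genes 3 had a member (interval 2.11 to 26.5%), at Bcl11b, a factor of subcortical projection neurons (294 bp, 1969 bp from an MGE peak), Neurod6 (222 bp) and Wnt8b (181 bp). Of 25 progenitor genes 2 had a member, at Otx1 (189 bp) and the Notch ligand gene Dll3 (165 bp, 2737 bp from an MGE peak). Intervals of each of these lists held the share of all genes.

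Migration and guidance genes had members at 5 of 38 (13.2%, interval 4.41 to 28.1%) and shared peaks at 6. Plxna2, a semaphorin co-receptor, had the widest (chr1:194618782-194619312, 531 bp), within 1 kb of its start. Next came the chemokine receptor gene Cxcr4 (315 bp, 223396 bp from an MGE peak). The Slit receptor gene Robo1 (295 bp, 187510 bp) and the netrin receptor gene Dcc (254 bp) followed. Potassium channel genes had members at 7 of 80 (8.75%), with the widest at the start of Kcnma1, the BK channel gene (chr14:24004859-24005349, 491 bp), and others at Kcnh1 (295 bp) and Kcnk15 (197 bp). Cohesin and CTCF partner genes had a member at 1 of 22, the cohesin core gene Smc3 (227 bp, 173 bp from an MGE peak), and shared peaks at 6 (27.3%, 10.7 to 50.2%). The member intervals of these 3 lists (4.41 to 28.1%, 3.59 to 17.2% and 0.115 to 22.8%) held the 9.62% of all protein-coding genes.

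Markers of other cell types carried none. Members lay at 0 of 7 blood, 0 of 12 vascular and meningeal and 0 of 4 microglia marker genes, with exact upper bounds of 41.0%, 26.5% and 60.2%. Each bound lay above the 9.62% of all protein-coding genes, so these short lists could not be told apart from all genes. A peak does not measure expression, so these counts do not check the tissue.

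**Figure D5:**
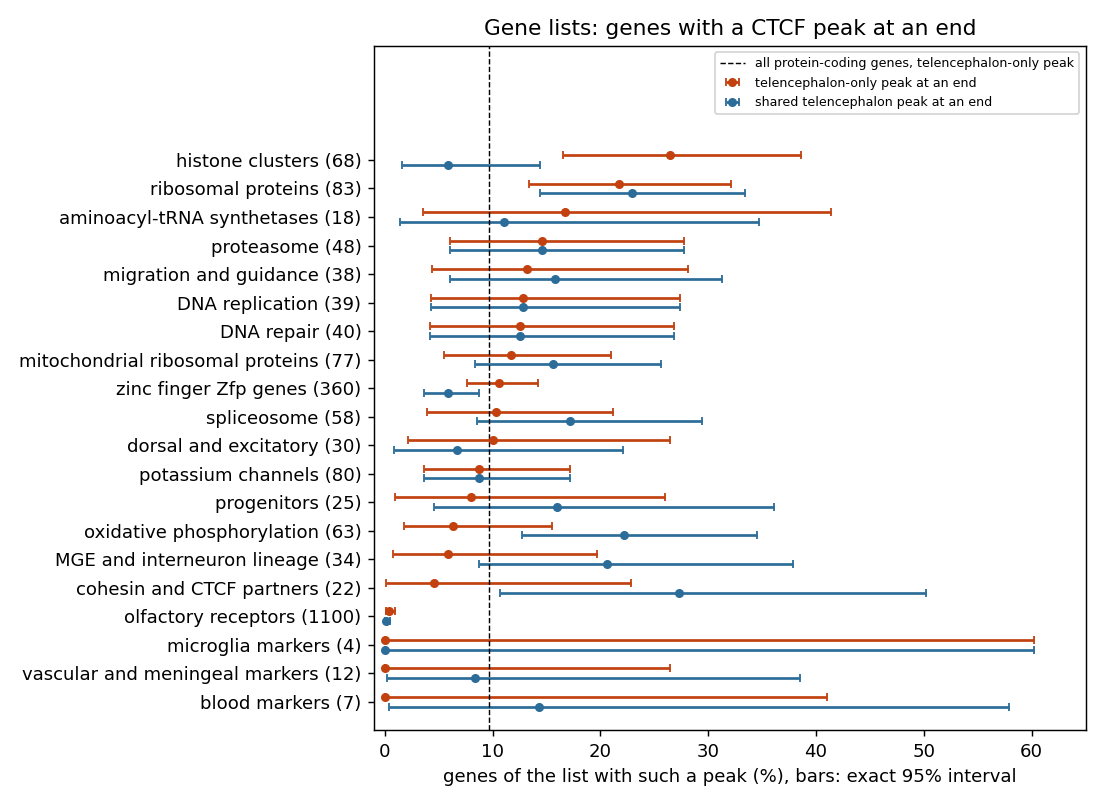
Share of the genes of each list (%, number of genes in brackets) with a telencephalon-only peak or a shared telencephalon peak within 1 kb of an end; bars are exact 95% intervals, and the dashed line is the 9.62% of all protein-coding genes with a telencephalon-only peak. Histone genes stand at 26.5% and 5.88%, and oxidative phosphorylation genes at 6.35% and 22.2%.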

How the data were processed

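CTCF was profiled by ChIP-seq in telencephalon and MGE, with 1 CTCF library each. The submitters' processing notes name Bowtie2 2.3.2, MACS2 2.1.1.20160309 and the mm10 build. Calling thresholds, controls and pooling are not stated there. The authors' deposited lists give chromosome, start and end of each peak, and no other value. Per the file headers the telencephalon track name carries e14 and p001 and the MGE track name p01, without saying what these mean; the labels give E13.5 for both. With no read counts, the depth behind each list is unknown.

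Peaks on chromosomes 1 to 19 were used; 838 telencephalon and 822 MGE peaks lay elsewhere. Positions were made 1-based. Gene ends came from a RefSeq table (GRCm38.p6, 47042 genes), and starts, strands and promoter sequences from a RefSeq promoter table (31396 entries of 25748 genes); chromosome 18 was not analysed here for these. Exons and introns were not used here. Overlaps, widths, distances and motifs were computed with Python 3.11.15, pandas 2.3.3, NumPy 2.4.6 and SciPy 1.17.1, and tested on simulated data. No p-value was computed, since each tissue had 1 library. Named genes were the 15 widest members, the 5 farthest from an MGE peak, up to 4 widest in each of 20 gene lists, those with most members, and those at the thresholds; some genes that this rule names are not reported here. Members, lists and motifs were chosen with earlier results of these data known. Alternatives changed the overlap, window, gene types, widths and motif settings.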

Additional observations from a re-analysis of the deposited data

Results flagged for a closer look

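Chromosome X lies outside the chromosomes 1 to 19 used above. The telencephalon list held 712 peaks on it, of which 496 had no MGE partner and 55 of these had a midpoint within 1 kb of a gene end. On chromosome Y 3 peaks met the same rule. They were set apart because they are data outside the main measurement, and no control sample was used beside them.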

How the results depend on the processing

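No paired analysis was possible because each tissue has 1 CTCF library, and leaving out a replicate was not possible for the same reason. Of 61 values recomputed for the main results under 13 alternatives, 2 of them chosen after seeing the data, 33 stayed within the interval of the reported value or, for counts, within 1.5 times it, and 28 moved. With a gene-end window of 500 bp there were 1763 members beside 1995 genes, 10.8% of telencephalon-only peaks, and 77.0% at starts; with 2 kb these were 4007, 4603, 24.4% and 69.6%. With protein-coding genes alone 11.2% of telencephalon-only peaks lay at ends of 1988 genes, 76.0% at starts. With telencephalon peaks at least as wide as the narrowest MGE peak there were 1204 members beside 1440 genes (18.2%), with a median width of 310 bp; with as many of the widest as in the MGE list the share was 17.2% and the median 269 bp. With the wider 50% of each list there were 1299 members beside 1508 genes (18%), the median width was 355 bp, 17.6% had an MGE peak within 5 kb and 21.6% of their promoters held the CTCF core, against 40.0% under shared peaks. That choice also turns peaks into members by removing narrow partners. Counting peaks within 500 bp of an MGE peak as shared left 18.6% of members with an MGE peak within 5 kb, since it removes the nearest ones. The CTCF core share under members was 2.21% with no mismatch, 51.6% with at most 2, 23.0% with the window wholly inside the peak and 11.2% in CpG-rich promoters, against 11.6%, 72.3%, 54.4% and 34.2% under shared peaks, so it was lower under members in each. ACTACAA was in 7.21 to 8.33% of promoters under members except with the wider 50% of each list (5.35%) and with the window wholly inside the peak (1.64%, 1 of 61 promoters). Histone genes with a member numbered 12 to 22 except with telencephalon peaks as wide as the narrowest MGE peak (6) and the wider 50% (3). The cause of the other moves was not tested. Depth is unknown, and a peak below the limit of a list is missing from it.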
